A study of Mus musculus with 4 samples.

Results

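The Ret-GDNF pathway was examined in sorted cells of chimeric mouse kidneys through 10 genes: the ligand gene Gdnf, the receptor genes Ret, Gfra1 and Gfra2, the transcriptional targets Etv4 and Etv5, and the transcription factor genes Sox8, Sox9, Gata3 and Emx2. The genes were taken by name, with earlier results of these data known. All 22 probe sets that the platform annotation assigns to them were read, out of 45101 probe sets and 18194 genes in the whole table. Wildtype blastocysts had received 3 to 5 embryonic stem cells that were GFP-positive and deleted for the transferrin receptor gene Tfrc, and the chimeric kidneys were taken on embryonic day 15.5. After digestion, the cells were sorted into Tfrc-/- GFP-positive cells of the donor line and wildtype GFP-negative cells of the host. Each group was measured on 2 Affymetrix mouse expression arrays, from 50 ng of total RNA that was then amplified. The sources used here do not give strain, sex or how many embryos went into an array. No array held donor-line cells with an intact Tfrc gene, so the deletion cannot be told apart from whatever else distinguishes the donor line from its host.

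GDNF is secreted by the metanephric mesenchyme, the cells that surround the ureteric bud and give rise to nephrons. It binds the membrane-anchored co-receptor GFRα1, and together they activate the receptor tyrosine kinase Ret on the bud, where signalling concentrates in the branching tips. Ret signalling raises the ETS-family factors Etv4 and Etv5, Sox8 and Sox9 act within the same tip programme, Gata3 lies upstream of Ret in the nephric duct and bud, and Emx2 is a homeobox factor needed for the bud to function after it has entered the mesenchyme. GFRα2 is the co-receptor preferred by the related ligand neurturin. Several of these genes are also known from peripheral neurons, glia and the gonad.

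RefSeq promoter sequences of build GRCm38.p6 were found for 6 of the 10 genes, with 8 start sites in all. Those of Gata3 and Gdnf are shown because these genes stand for a factor of the bud and the signal of the mesenchyme, and Gata3 stood among the most separated of the set on the arrays while Gdnf did not. Each run is the 250 bases before the start site, 5′ to 3′. Capitals mark short words that such factors can bind, searched on both strands: AGGAAG or the second core CCGGAA for ETS factors, AGATAA with its variants TGATAA for a first-base change, AGATAG for a last-base change and also TGATAG for both in the case of GATA factors, and ACAATG or the alternative ACAAAG for SOX factors.
Gata3, minus strand, chr2:9878601-9878850: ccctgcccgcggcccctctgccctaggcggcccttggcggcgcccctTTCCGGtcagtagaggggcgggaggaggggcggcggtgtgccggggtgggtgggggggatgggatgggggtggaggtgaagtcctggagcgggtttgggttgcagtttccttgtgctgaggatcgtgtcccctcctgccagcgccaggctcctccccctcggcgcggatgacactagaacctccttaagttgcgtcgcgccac
Gdnf, plus strand, the first of 2 start sites, chr15:7809798-7810047: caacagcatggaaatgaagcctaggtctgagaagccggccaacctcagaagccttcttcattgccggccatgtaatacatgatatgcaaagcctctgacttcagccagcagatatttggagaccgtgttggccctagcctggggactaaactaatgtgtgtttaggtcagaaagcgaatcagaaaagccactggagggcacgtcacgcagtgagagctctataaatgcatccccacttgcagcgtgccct
The Gata3 run held 1 ETS word, CCGGAA on the opposite strand, whose first printed base lies 203 bases before the start, and the Gdnf run held none of the words searched. Over the 8 start sites, ETS words were present at 3 (1 each of Gata3, Gfra1 and the other Gdnf start), GATA words at 1 (the other Gdnf start) and SOX words at 0. Among all 32851 promoters of the same length, 38.2% held an ETS word, 26.5% a GATA word and 25.2% a SOX word. The GC content was 70% for the Gata3 run and 50.8% for the Gdnf run.

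Intensities are on the linear scale deposited by the authors, and the control level of an array is its highest Bacillus subtilis control probe set, between 7.18 and 9.08 over the 4 arrays. The median intensity of an array lay between 17.5 and 19.3. The 3′ over 5′ ratio for beta-actin, a sign of RNA and labelling quality, went with the replicate number more than with the group: both arrays with number 1 had the lower ratios (wildtype 5.51, labelled Tfrc-/- 5.89) and both with number 2 the higher (6.49 and 7.21). Tfrc itself did not check the labels, since 5 of its 6 probe sets had higher means on the arrays labelled Tfrc-/-, by 0.47 to 1.42 on the log2 scale, and the sixth never exceeded the control level. The sources used here do not say which part of Tfrc was deleted. The group is therefore called labelled Tfrc-/-, and each direction rests on that label.

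Ret, Gata3 and Gfra1 stood lower on the arrays labelled Tfrc-/-, by 11.1-fold, 3.48-fold and 2.80-fold. Gfra2 stood 1.98-fold higher, and Gdnf differed by less than its spread between arrays. Sox9, Emx2 and Etv5 lay lower without overlap of the groups by 1.62-fold, 1.40-fold and 1.26-fold, while the values of Etv4 and Sox8 overlapped. Each gene is read here from its brightest probe set by mean log2, and all 10 of these lay above the control level on all 4 arrays. None of the differences passed limma's test over all genes at an adjusted p of 0.05, where 0% of the 18194 genes passed. Without adjustment, 5 of the 10 genes (Ret, Gata3, Gfra2, Gfra1 and Sox9) had a p under 0.05, against 8.02% of all genes.

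**Figure D1:**
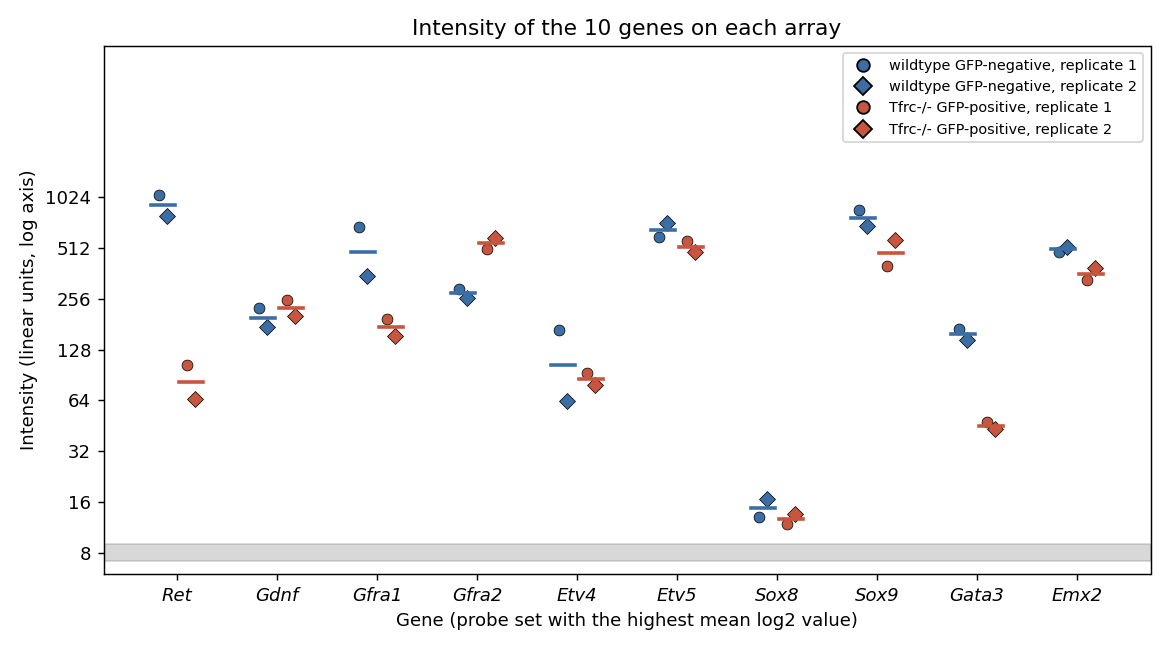
Intensity of each gene on each of the 4 arrays, on a log axis, with a bar at the mean of the log2 values of each group and a grey band over the range of the control levels of the arrays. The wildtype values of Ret, 1057 and 789.6, lie far above its values of 104.3 and 65.1 on the arrays labelled Tfrc-/-, Gata3 and Gfra1 are apart in the same direction, Gfra2 is apart in the other, and the values of Gdnf, Etv4 and Sox8 overlap.

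Counted by separation of the arrays, 3 of the 10 genes were lower by at least 2-fold without overlap, against 1.51% of all genes, and 0 were higher by that rule, against 1.15%. With no minimum size, 6 of the 10 lay lower without overlap, against 14.3% of all genes, and 1 lay higher, against 20.6%. The median log2 difference was -0.41 over the 10 genes and 0.04 over all genes. An exact permutation test of 2 arrays against 2 cannot give a two-sided p below 0.33, so separation of the arrays is a description here. The 10 genes were chosen with earlier results of these data known, so the shares of all genes are a background and not a test. The labels call the arrays biological replicates without saying what was separate between them, so p-values measure the spread between these samples.

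Gdnf, the ligand made by the mesenchyme, read 224.0 and 173.4 in wildtype cells against 251.1 and 202.4 in cells labelled Tfrc-/-. The ranges overlapped. Group means differed on the log2 scale by 0.19 (95% interval -0.39 to 0.78, limma adjusted p = 0.953), which leaves room for a change in either direction of the size seen for Etv5. The other ligands and co-receptors of the family were dim: among Nrtn, Artn, Pspn, Gfra3 and Gfra4 the highest reading of any array was 30.96, for the ligand gene Artn. Gfra4 lay above the array median on all 4 arrays, at 29.5 and 22.3 in wildtype cells against 30.3 and 23.1, and Pspn exceeded the control level on 2 of 4. Log2 differences in these 5 genes ranged from -0.15 (Nrtn, neurturin) to 0.17 (Gfra3, the co-receptor for artemin), with a median of 0.05, and 0 of 5 passed the adjusted threshold or had an unadjusted p under 0.05.

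Ret, the signalling receptor, read 1057 and 789.6 in wildtype cells and 104.3 and 65.1 in cells labelled Tfrc-/-. The higher of the values labelled Tfrc-/- was still far below the lower wildtype value. Group means were 923.1 ± 188.9 and 84.7 ± 27.8 (SD, n = 2 each), with a log2 difference of -3.47 (SE 0.30, limma adjusted p = 0.122). Ordered from the most negative difference, Ret ranked 14 among the 18194 genes, and by p it ranked 7. In a sorted population, fewer cells of a type and less RNA per cell cannot be told apart. The second Ret probe set was dim, at 26.0 and 13.5 against 7.87 and 7.49, with 1 of the arrays labelled Tfrc-/- at or below its control level. It differed in the same direction, with a log2 difference of -1.29. Averaged over both probe sets, Ret gave -2.38.

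Gfra1, the co-receptor through which GDNF reaches Ret, read 675.4 and 349.1 on the wildtype arrays against 193.9 and 154.8. The groups did not overlap, but the wildtype arrays lay far from each other. The fitted log2 difference stood at -1.49 (SE 0.36, limma adjusted p = 0.342), and it was -1.01 without wildtype replicate 1 and -1.96 without wildtype replicate 2. A second Gfra1 probe set gave tighter values, 110.6 and 101.4 against 43.0 and 52.2, with a log2 difference of -1.16. The third was near the control level on 3 of the 4 arrays and read 29.3 on wildtype replicate 2, so its difference rests on that array.

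Gfra2, the co-receptor for neurturin, had the only higher values of the set that did not overlap, and only in some of its probe sets. Its brightest read 293.5 and 257.0 on the wildtype arrays against 502.2 and 586.8, a log2 difference of 0.98 (SE 0.20, limma adjusted p = 0.284). A second read 83.96 and 57.6 against 141.9 and 128.9, a log2 difference of 0.96. Both carry the manufacturer's suffix for probe sets with probes that can bind other sequences, and neither has an accession in the annotation used here. The other 3 were dim, with no reading above 46.7, and their ranges overlapped, with log2 differences of 0.24, 0.37 and 0.27. Averaged over its 5 probe sets, Gfra2 gave a log2 difference of 0.56. Whether the brighter signal is Gfra2 was not tested. Ret and both of the brighter Gfra1 probe sets thus stood on one side and Gfra2 on the other.

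**Figure D2:**
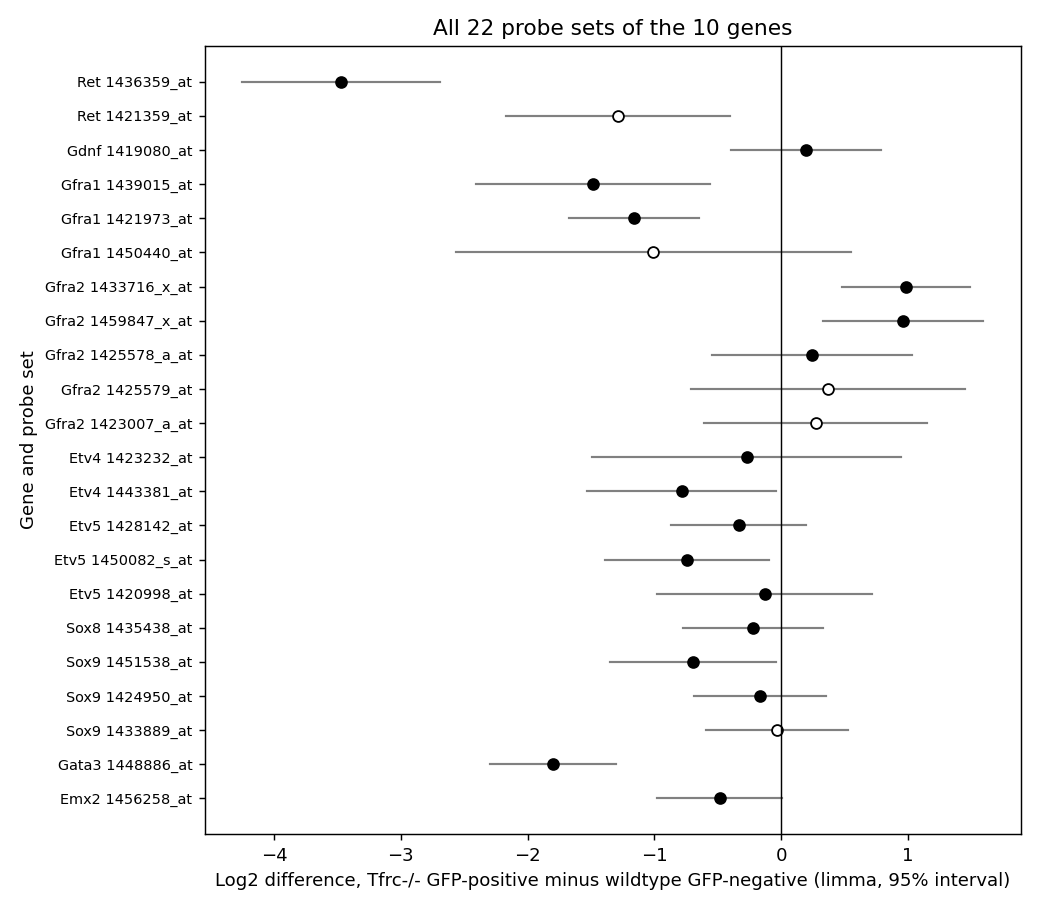
Log2 difference between the arrays labelled Tfrc-/- and the wildtype arrays for each of the 22 probe sets, with the 95% interval of a limma fit over all 45101 probe sets; filled points lay above the control level on all 4 arrays and open points on fewer. All points of Ret, Gfra1, Etv4, Etv5 and Sox9 lie below 0 and all 5 of Gfra2 above it, and the intervals of the dim probe sets are mostly wide.

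Of the 22 probe sets, 17 lay above the control level on all 4 arrays and 5 on only some. Among the 17, 13 had a lower mean and 4 a higher mean on the arrays labelled Tfrc-/-, and 9 lay lower and 2 higher without overlap. The 2 were both of Gfra2. Several of the 17 belong to the same gene, so these counts are not separate observations. The share of all probe sets without overlap was not computed, so the counts are a description only. A limma fit over all 45101 probe sets called 0 of them at an adjusted p of 0.05, members included.

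Etv5, an ETS factor induced by Ret signalling, read 593.4 and 721.5 on the wildtype arrays against 558.0 and 481.3 on the arrays labelled Tfrc-/-. The groups were apart by a narrow gap. This gave a log2 difference of -0.34 (95% interval -0.86 to 0.19, limma adjusted p = 0.812). A dimmer probe set stood at 35.7 and 51.9 against 27.6 and 24.0, a log2 difference of -0.74, and the third overlapped, with a log2 difference of -0.13. Etv5 thus differed far less than Ret on the same arrays.

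Etv4, its close relative, read 167.2 and 63.6 on the wildtype arrays against 92.8 and 78.5. Wildtype replicate 1 was the highest array and wildtype replicate 2 the lowest, so the groups overlapped. The log2 difference of -0.27 (SE 0.47, limma adjusted p = 0.989) turned to 0.42 without wildtype replicate 1 and was -0.97 without wildtype replicate 2. The dim second probe set was lower without overlap, at 21.8 and 25.6 against 10.7 and 17.5, and the average of both gave a log2 difference of -0.53.

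Gata3, the zinc finger factor of the nephric duct and bud, read 170.3 and 146.0 on the wildtype arrays against 47.6 and 43.1. The arrays of each group lay close together and the groups far apart. Means were 158.2 ± 17.2 and 45.4 ± 3.20 (SD, n = 2 each), with a log2 difference of -1.80 (SE 0.20, limma adjusted p = 0.122). Leaving out any 1 array kept it between -1.91 and -1.69. Gata3 has a single probe set here, and it ranked 64 among all genes from the most negative difference.

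Sox9, an HMG-box factor of bud tips and other progenitors, read 861.2 and 690.3 on the wildtype arrays against 399.9 and 565.8. The groups did not overlap. Group means differed on the log2 scale by -0.70 (SE 0.25, limma adjusted p = 0.574), and without the first or the second array labelled Tfrc-/- it was -0.45 or -0.95. The other Sox9 probe sets were dim, with no reading above 13.2, and showed differences of -0.17 and -0.03 on the log2 scale. Averaged over its 3 probe sets, Sox9 gave -0.30. Sox8, which acts with Sox9, was faint throughout, at 13.1 and 16.7 against 11.8 and 13.6. These values overlapped and lay below the median intensity of their arrays, so little can be read from its log2 difference of -0.22 (95% interval -0.77 to 0.33).

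Emx2, the homeobox factor, read 482.5 and 518.9 on the wildtype arrays against 329.5 and 387.8. The groups were apart. The fitted log2 difference stood at -0.49 (SE 0.19, limma adjusted p = 0.63), a much smaller difference than those of Ret or Gata3.

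**Figure D3:**
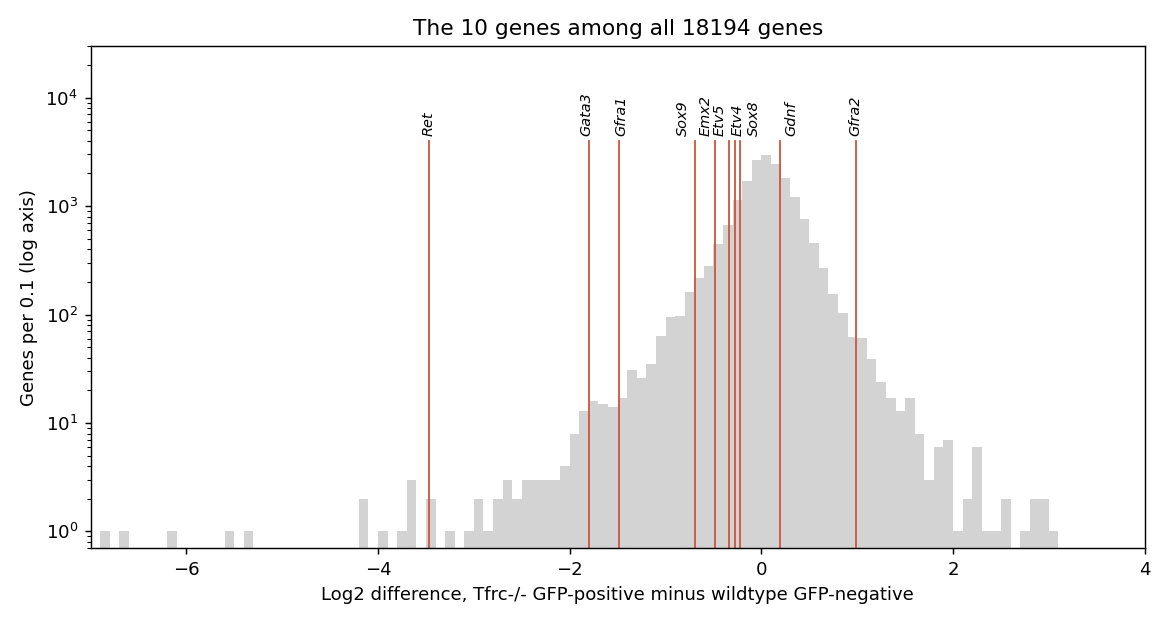
Number of genes at each log2 difference, in steps of 0.1 and on a log axis, for all 18194 genes, with a line at each of the 10 genes. Ret lies in the thin lower tail at -3.47, Gata3 and Gfra1 lie on the lower flank, Gfra2 lies on the upper flank at 0.98, and the other 6 lie between -0.70 and 0.19.

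The rest of the pathway was read from lists of genes. Genes reported to depend on Ret or on Etv4 and Etv5 in bud tips all had lower means on the arrays labelled Tfrc-/-, 8 of 8, with a median log2 difference of -0.34, where 42.4% of all genes had a lower mean. 0 of 8 passed the adjusted threshold, and 1 of 8 had an unadjusted p under 0.05, against 8.02% of all genes. 4 of 8 lay lower without overlap, against 14.3%. The chemokine receptor gene Cxcr4, which is also expressed by endothelium and blood cells, read 1295 and 1510 on the wildtype arrays against 753.6 and 820.1 (log2 difference -0.83, SE 0.19, limma adjusted p = 0.328). Log2 differences were -0.40 for the ERK phosphatase gene Dusp6, -0.38 for the protease gene Mmp14, -0.37 for the tip signal gene Wnt11, -0.31 for the Ret antagonist gene Spry1, -0.30 for the receptor gene Met, -0.28 for the transcription factor gene Myb and -0.14 for Spred2, an inhibitor of the Ras pathway. The Myb probe set carries the same suffix as the brighter Gfra2 probe sets, for probes that can bind other sequences. None of the 8 was lower by 2-fold.

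Other genes are enriched in the bud tip without being listed as Ret-dependent, except Wnt11, which is in both lists. Slco4c1, an organic anion transporter gene, read 168.5 and 80.4 on the wildtype arrays against 13.4 and 6.39. The lowest of these readings was below the control level of its array. This gave a log2 difference of -3.66 (SE 0.50, limma adjusted p = 0.15). Ros1, a receptor tyrosine kinase gene, read 30.1 and 19.1 against 7.46 and 5.96, again with 1 array below its control level, and Adamts18, a secreted protease gene, read 30.5 and 36.5 against 19.4 and 20.4. Wnt11 overlapped between the groups, at 95.3 and 60.8 against 53.3 and 64.8. Of the 4 tip genes, 0 passed the adjusted threshold and 3 had an unadjusted p under 0.05, against 8.02% of all genes. The median log2 difference over the 4 was -1.30, and the reading of Ros1 below its control level enters it.

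Feedback inhibitors of receptor tyrosine kinases also had lower means throughout, 11 of 11, where 42.4% of all genes had a lower mean. The differences were small, with a median log2 difference of -0.19 and a range of -0.67 to -0.07. 0 of 11 passed the adjusted threshold or had an unadjusted p under 0.05. 4 of 11 lay lower without overlap, against 14.3% of all genes. The 4 with the smallest p were Dusp5, Dusp6, Dusp4 and Spry1, at -0.62, -0.40, -0.67 and -0.31 on the log2 scale. They are not the same 4, since the values of Dusp4 overlapped between the groups. The list shares Dusp6, Spry1 and Spred2 with the Ret-dependent genes above, so the counts of these lists are not separate observations.

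Adaptor and signal relay genes below Ret showed no common direction. Of 24 genes listed, 17 had a value here. Of these 17 genes, 8 had lower and 9 higher means, with a median of 0.03, and 0 passed the adjusted threshold. 3 had an unadjusted p under 0.05, against 8.02% of all genes. 2 lay lower without overlap, against 14.3%, and 3 higher, against 20.6%. The docking protein gene Dok1 read 38.9 and 47.1 on the wildtype arrays against 79.3 and 65.3. Log2 differences were 0.53 for Pik3r1 and -0.49 for Pik3cb, subunits of phosphoinositide 3-kinase, and -0.87 for Dok4, another docking protein gene. The common adaptor gene Grb2 and the exchange factor gene Sos1 were among those with the smallest differences of the list, -0.07 and 0.03 (both named after their values were seen).

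Genes listed as upstream of Ret in the bud had a median of -0.01 over 11 genes, with 7 lower and 4 higher means. The list mixes genes of the bud with genes of the cells around it, and not all of them raise Ret. Of the 11, 0 passed the adjusted threshold or had an unadjusted p under 0.05. The 4 with the smallest p were the transcription factor gene Lhx1 and the receptor gene Fgfr2, at -0.48 and -0.32, and the secreted factor gene Ecm1 and the retinoic acid receptor gene Rarb, at 0.44 and 0.55. Genes listed as upstream of Gdnf in the mesenchyme had a median of -0.04 over 13 genes, 7 with lower and 6 with higher means. The list also holds the growth factor genes Fgf7 and Fgf10, which are not taken here as regulators of Gdnf. Fgf7, a growth factor gene of stroma, did not exceed the control level on either wildtype array and read 19.8 and 36.2 in cells labelled Tfrc-/-, at least 3.31-fold higher (limma adjusted p = 0.212). For such bounds, the control level of an array stands in for its dim reading. Log2 differences were 0.47 for Hoxd11, 0.45 for Fgf10, whose reading was below the control level on wildtype replicate 2, and -0.36 for Npnt, which encodes the ligand of an integrin of the mesenchyme. 0 of 13 passed the adjusted threshold and 2 had an unadjusted p under 0.05, against 8.02% of all genes. Fgf7, above the control level in cells labelled Tfrc-/- only, is among the 2, so the count is a description.

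Genes that restrict Gdnf or Ret activity had a median of 0.01 over 6 genes, 3 with lower and 3 with higher means. Of the 6, 0 passed the adjusted threshold and 1 had an unadjusted p under 0.05, against 8.02% of all genes. The 1 was Robo2, above the control level in wildtype cells only, so the count is a description. Robo2, the receptor gene for the repellent Slit2, read 11.4 and 18.3 on the wildtype arrays and did not exceed the control level in either sample labelled Tfrc-/-, at least 1.91-fold lower (limma adjusted p = 0.416). Slit2 itself read 2145 and 1941 against 2215 and 2388. Bmp4, an inhibitor of bud outgrowth, had a log2 difference of 0.35, and Spry1 is given above.

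**Figure D4:**
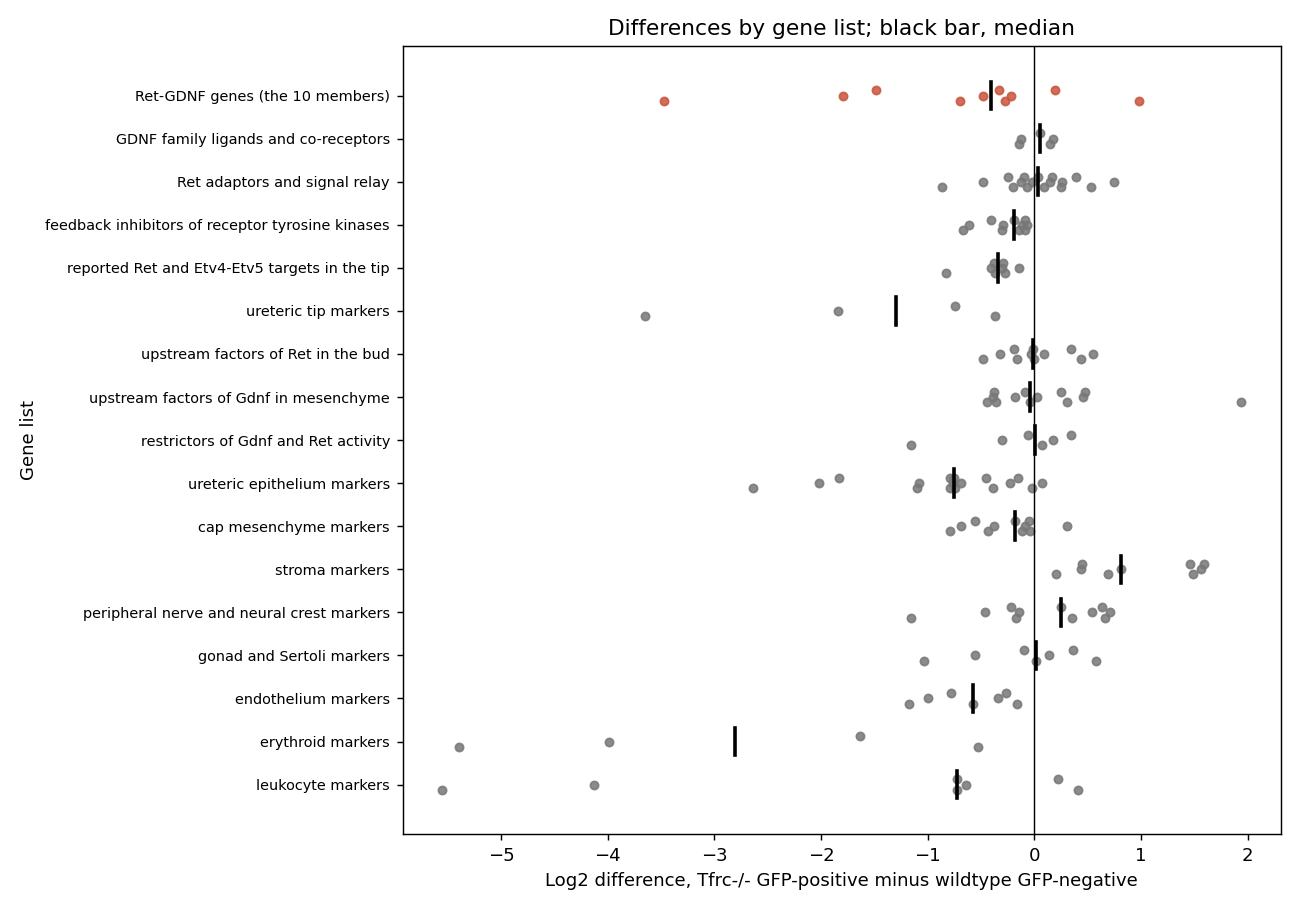
Log2 difference of each gene by list, for genes above the control level on at least 1 array, with a black bar at the median of each list and the 10 pathway genes in red at the top. Medians range from -2.81 for erythroid markers to 0.81 for stroma markers, with ureteric epithelium markers at -0.75 and tip markers at -1.30.

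Markers of the cells that express the pathway were also read on each array. Ureteric epithelium markers of tip and trunk had lower means in 16 of 17 genes, with a median log2 difference of -0.75. 0 of 17 passed the adjusted threshold, 10 had an unadjusted p under 0.05, against 8.02% of all genes, and 11 lay lower without overlap, against 14.3%. Their summed intensity was 9311 and 9347 on the wildtype arrays against 4654 and 5081. The 4 with the smallest p were Elf5, Calb1, Tfap2a and Wnt9b, at -1.84, -2.02, -1.10 and -2.64 on the log2 scale. Cdh1, the E-cadherin gene (named after its values were seen), read 941.1 and 1166 against 628.7 and 670.4.

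Set against the mean log2 value of these 17 markers on the same array, Ret was still lower, with values of 2.53 and 2.13 in wildtype cells and -0.06 and -0.53 in the others, a difference of -2.62. Gata3 was lower by this measure too, with a difference of -0.95, and Gfra1 with -0.64, both without overlap of the groups. For Gdnf, Gfra2, Etv5, Sox8 and Emx2 the sign was positive and the groups were apart, with differences of 1.04, 1.83, 0.51, 0.62 and 0.36, and Etv4 and Sox9 overlapped, at 0.57 and 0.15. The marker mean itself differed by -0.85, so a gene with no difference of its own gets a positive value of that size by the subtraction. A positive sign by this measure is therefore not a higher value on the arrays labelled Tfrc-/-. The share of all genes apart by this measure was not computed, and Sox8 was faint throughout. The marker mean weighs all 17 alike. The dim markers Hoxb7, Wnt7b, Gjb1 and Cldn4 differed by -0.03, 0.07, -0.39 and -0.75. Brighter markers ran from -2.64 for Wnt9b and -2.02 for Calb1 to -0.15 for Krt19 (Hoxb7, Wnt7b, Gjb1, Cldn4 and Krt19 named after their values were seen). The size of each difference by this measure thus depends on the markers used. The values show unequal differences within an array, and the part of epithelial content in them was not tested.

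**Figure D5:**
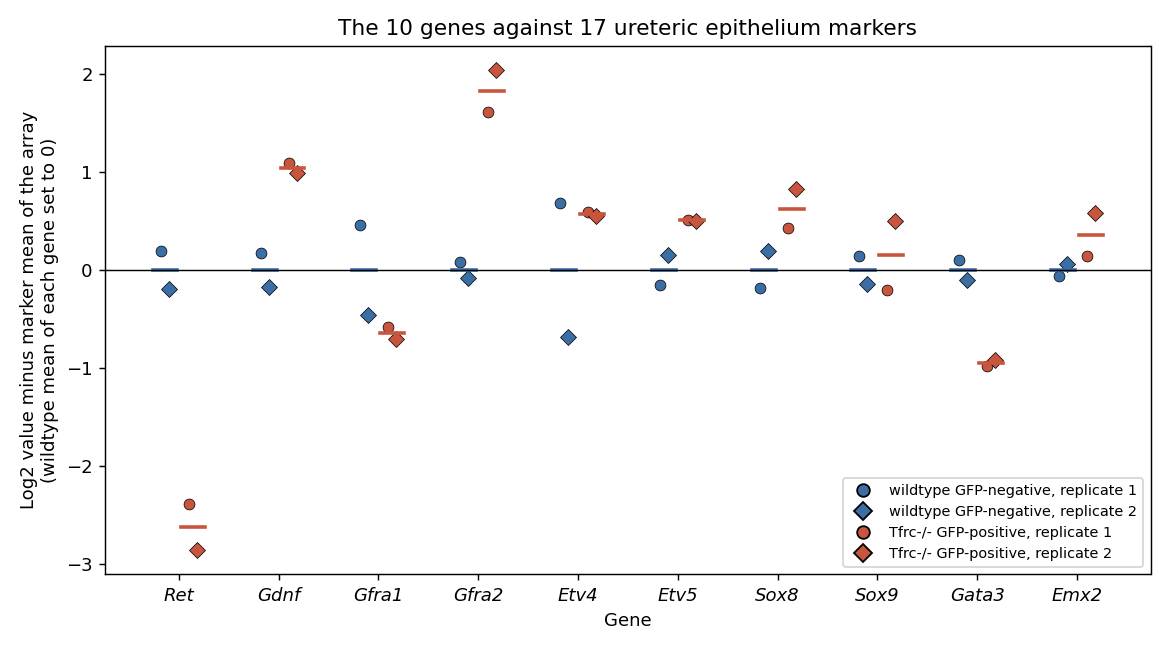
Log2 value of each gene minus the mean log2 value of 17 ureteric epithelium markers on the same array, with the wildtype mean of each gene set to 0 and a bar at each group mean. On the arrays labelled Tfrc-/- the group means lie at -2.62 for Ret, -0.95 for Gata3 and -0.64 for Gfra1, at 1.04 for Gdnf and 1.83 for Gfra2, and the values of Etv4 and Sox9 overlap. The subtracted marker mean differs by -0.85, so a gene with no difference of its own lies above 0.

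In the mesenchyme, where Gdnf is made, cap mesenchyme markers had lower means in 10 of 11 genes, with a median of -0.18. 0 of 11 passed the adjusted threshold, 2 had an unadjusted p under 0.05, against 8.02% of all genes, and 3 lay lower without overlap, against 14.3%. The list had summed intensities of 4602 and 5723 on the wildtype arrays against 4371 and 4380. The 4 with the smallest p were Spock2, Rspo1, Cited1 and Six2, at -0.69, -0.56, -0.79 and -0.38. Gdnf minus the mean log2 value of these 11 markers was 0.08 and -0.62 on the wildtype arrays against 0.24 and 0.16. Stroma markers had higher means in 9 of 9 genes, with a median of 0.81, and 8 lay higher without overlap, against 20.6% of all genes, among them Lum, Tbx18, Postn and Foxd1 at 1.49, 1.46, 1.59 and 0.81. Their summed intensity was 12281 and 8827 on the wildtype arrays against 15832 and 13922. 0 of 9 passed the adjusted threshold, and 6 had an unadjusted p under 0.05, against 8.02% of all genes. The part of a shift between cell types in the pathway genes was not tested.

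Markers of other cells known for these genes were mostly dim. Over 11 genes of peripheral nerve and neural crest the median was 0.25, with 5 lower and 6 higher means and summed intensities of 358.3 and 461.8 on the wildtype arrays against 418.3 and 509.2. The neuronal RNA-binding protein gene Elavl4 read 95.3 and 154.5 against 52.3 and 56.5, while the receptor gene Ngfr, the glial gene Fabp7 and the tubulin gene Tubb3 differed by 0.54, 0.71 and -0.46 on the log2 scale, Tubb3 with 1 array labelled Tfrc-/- below its control level. The glial factor gene Sox10 read 15.7 and 21.6 against 17.5 and 46.5, and the autonomic factor gene Phox2a was above the control level on 2 of 4 arrays (both named after their values were seen). Of 9 gonad markers, 2 never exceeded the control level, the Sertoli cell factor gene Dmrt1 among them. The other 7 had a median of 0.01, with summed intensities of 187.9 and 224.9 against 155.3 and 169.9. Those with the smallest p were Ptgds at -1.03, Nr5a1 at least 1.39-fold lower, Dhh at 0.36 and Star at 0.57. 0 genes of either list passed the adjusted threshold, and 3 of 11 and 2 of 7 had an unadjusted p under 0.05, against 8.02% of all genes. Nr5a1, above the control level in wildtype cells only, is among the gonad genes counted, so that count is a description.

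Vessel and blood markers were read in the same way. All 7 endothelium markers had lower means, with a median of -0.58 and summed intensities of 3131 and 2261 against 2444 and 1735. Without overlap, 3 of the 7 lay lower, against 14.3% of all genes. Log2 differences were -0.58 for Cdh5, -0.34 for Cd34 and -1.18 for Pecam1. The values of Pecam1 overlapped, at 114.0 and 33.1 on the wildtype arrays against 44.6 and 16.5. The receptor gene Kdr read 222.8 and 175.3 in wildtype cells against 119.6 and 82.1. Of the 5 erythroid markers measured, Epb42 never exceeded the control level, and the other 4 had a median of -2.81, with Alas2, Slc4a1, Hemgn and Klf1 at -5.40, -3.99, -1.63 and -0.53. Hemgn was below the control level on 1 of the arrays labelled Tfrc-/-, which enters its difference and the median. Their summed intensity was 604.6 and 1906 against 71.0 and 42.5. Leukocyte markers had a median of -0.72 over 7 genes, the eighth never exceeding the control level, and summed intensities of 7936 and 11040 against 3395 and 3770. The largest differences there were those of the granulocyte genes S100a9 and S100a8, at -5.55 and -4.13, and Ptprc and Ctss differed by -0.73 and -0.64. Of the 7, 5 had lower and 2 higher means. Without overlap, 5 lay lower and 1 higher, against 14.3% and 20.6% of all genes. The macrophage genes Cd68 and Csf1r (named after their values were seen) were those with higher means, at 0.41 and 0.22, Csf1r without overlap. 0 genes of these lists passed the adjusted threshold, and 1 of 7, 3 of 4 and 5 of 7 had an unadjusted p under 0.05, against 8.02% of all genes.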

How the data were processed

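RNA of 4 sorted cell samples was measured on Affymetrix arrays. The probe set intensities are those deposited by the authors on a linear scale, and the submitters' processing notes name RMA alone. RMA usually equalises array distributions, but medians of the deposited values ran from 17.5 to 19.3, so these distributions were not equal, and the steps behind that are not given in the sources used here. Log2 of the deposited values was used as it was. Of the probe sets, 34958 had 1 symbol in the platform annotation, 932 had several and 9211 had none. RefSeq (GRCm38.p6) held 18033 of the 18194 genes. A gene was read from its probe set of highest mean log2. The test was limma 3.58.1 (lmFit, eBayes) under R 4.3.3, unblocked, and an adjusted p (Benjamini-Hochberg, all genes) under 0.05 was a call. Differences are means of the labelled Tfrc-/- arrays minus wildtype. The number of arrays limits the precision. The 10 genes and all lists were chosen with earlier results of these data known, and list counts cover genes above the control level of at least 1 array. The shares of all genes were taken over all 18194, of which 15926 lay above that level on at least 1 array. The named genes are the members, all genes of the GDNF family and Ret-dependent lists, and up to 4 of each other list with the smallest p. The scripts were tested on simulated data.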

Additional observations from a re-analysis of the deposited data

How the results depend on the processing

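Over 11 alternatives, 109 of 110 recomputed differences of the 10 genes kept their direction, and 0 of 110 passed the adjusted threshold. The exception was Etv4, whose range when 1 array was left out was -0.97 to 0.42. The number of genes lower by at least 2-fold without overlap among the 10 was 3 in each of the 9 settings that give one. The number of genes called by limma over the whole table was 0, and became 2 with the replicate number as a replicate block, 1 when probe sets of a gene were averaged, 1 with the filter on dim genes, 2 with median centring and 2 with a trend and robust prior. The cause was not tested. The smallest adjusted p of any of the 10 genes lay between 0.0728 (median centring) and 0.922 (without labelled Tfrc-/- replicate 2). The number of genes apart by 2-fold was 484, 600 to 919 with 1 array left out (919 without wildtype replicate 2), 309 with averaged probe sets and 243 with an offset of 16 before log2. Quantile normalization left the limma count at 0. Arrays with the same number deviated together (Pearson correlation across 18194 genes 0.512), but with 2 pairs and no label on it, the numbers are not taken to pair the samples. The block and the prior do not enter the counts by separation. Signal near background limits what can be read from Sox8 and from 5 of the 22 probe sets.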
